A study of Mus musculus with 2 samples.

Results

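The CXC chemokines are small secreted proteins that attract leukocytes, and 9 genes of the family were followed here across the cells of the mouse heart: Cxcl1, Cxcl2, Cxcl3, Cxcl9, Cxcl10, Cxcl12, Cxcl13, Cxcl14 and Cxcl16. They were chosen by symbol, and all 9 are among the 22441 gene symbols of both count matrices. Hearts came from AC8 overexpressing C57/B6 mice and from wild-type (WT) C57/B6 littermates, neither of them treated. AC8 stands for adenylyl cyclase type 8, which turns ATP into the messenger cyclic AMP, and its overexpression is in cardiomyocytes according to the series title. Mice of each genotype were pooled, in numbers and at ages not given in the sources used here. Leukocytes (CD45+CD31-), mesenchymal cells (CD45-CD31-) and endothelial cells (CD45-CD31+) were sorted, mixed in equal numbers and made into 1 droplet library per genotype, so cardiomyocytes were not a sorted fraction and the mixing sets the shares of the 3 fractions.

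CXC chemokines act through G protein-coupled receptors and are held on the sugars of the cell surface and matrix. Cxcl1, Cxcl2 and Cxcl3 carry the ELR motif, bind Cxcr2 and draw neutrophils; their genes are switched on quickly by NF-kB and their messengers are short-lived. Cxcl9 and Cxcl10 are induced by interferons and bind Cxcr3 on T and NK cells. Cxcl12 is made steadily by stromal and vascular cells and binds Cxcr4 and the scavenging receptor Ackr3, and Cxcl13 binds Cxcr5 and draws B cells. Cxcl14 is a constitutive chemokine whose signalling receptor is not settled, and Cxcl16 is made as a membrane protein and binds Cxcr6.

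The AC8 library held 4867 cells and 11076564 unique molecular identifiers (UMIs, 1 for each captured messenger), and the WT library 5800 cells and 9664932 UMIs. Filters left 3578 AC8 cells (median 2323 UMIs) and 3546 WT cells (median 1882 UMIs). Cell classes were called "like" a type from marker genes, after clustering without the 9 chemokine genes. There were 1547 AC8 and 1908 WT fibroblast-like cells, 697 AC8 and 544 WT macrophage-like cells, 566 AC8 and 595 WT endothelial-like cells, and 296 AC8 and 104 WT B cell-like cells. Each of the other classes had fewer than 100 cells in at least 1 library. Fibroblast markers summed to 65455 counts per 1000000 UMIs (CPM) in AC8 and 58648 CPM in WT fibroblast-like cells, and to between 343 and 724 CPM in the macrophage-, endothelial- and B cell-like classes. The gene for AC8, Adcy8, was at 0 UMIs in the filtered AC8 cells and at 0 in the filtered WT cells, so it gives no check of the genotype in these cells. Since each genotype is 1 library, there is no replicate check and no test of any difference between them. Intervals in brackets are exact at 95% and cover counting error alone; they take every UMI as a separate draw, which understates the error where a gene sits in a few cells.

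The genes differed in the cells that made them. Fibroblast-like cells held 73.7% of the Cxcl1 UMIs in AC8 and 91.9% in WT, and 93.9% and 98.4% of the Cxcl14 UMIs in AC8 and WT. Macrophage-like cells held 83.7% of the Cxcl2 UMIs in AC8 and 79.8% in WT, and 97.3% and 95.1% of the Cxcl13 UMIs. Endothelial-like cells held 81.8% of the Cxcl12 UMIs in AC8 and 78.9% in WT, and 58.2% and 70.9% of the Cxcl9 UMIs. Cxcl16 was divided between macrophage-like cells (51.1% in AC8, 43.0% in WT) and fibroblast-like cells (32.3% in AC8, 40.7% in WT). These shares depend on how many cells of each class were captured, while CPM does not.

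**Figure D1:**
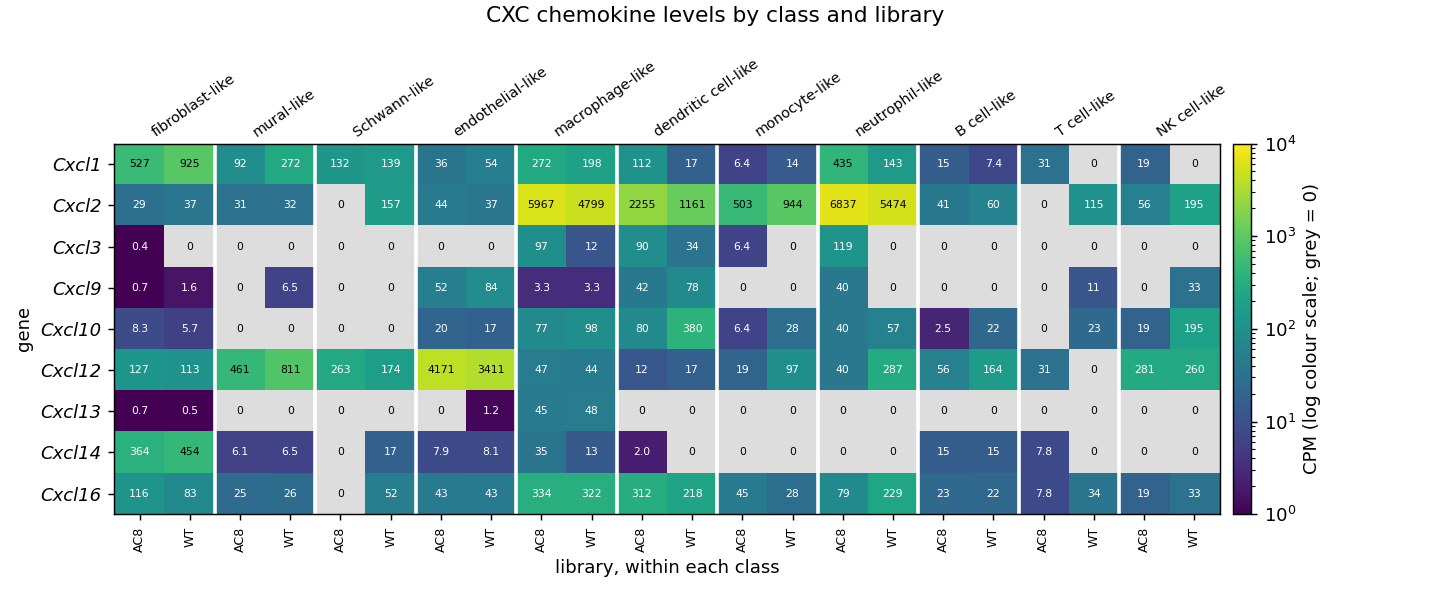
Level of each of the 9 genes (rows) in each class (column pairs, AC8 left of WT), in CPM on a log colour scale, with the value printed and 0 in grey. Cxcl2 is highest in macrophage- and neutrophil-like cells, Cxcl12 in endothelial-like cells, and Cxcl1 and Cxcl14 in fibroblast-like cells, in both libraries.

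A difference was counted where the log2 ratio of AC8 over WT, computed with 10 CPM added to both levels, passed 1.5-fold and the gene had at least 30 UMIs over both libraries. In fibroblast-like cells 6 of the 9 genes had enough UMIs and 1, Cxcl1, was past that fold, lower in AC8. Of all 10621 genes compared in that class, 2.98% were lower and 0.847% higher. In macrophage-like cells 8 of the genes could be compared and 2, Cxcl3 and Cxcl14, were past it and higher in AC8, where 6.22% of 8139 genes were higher and 7.61% lower. Endothelial-like cells gave 6 genes with 1, Cxcl9, lower in AC8, against 5.19% of 7146 genes lower and 4.8% higher. Cxcl9 fell short of the fold in 2 of 9 alternatives, with log2 ratios of -0.44 in thinned cells and -0.58 with median-of-ratios scaling, where it was -0.61. B cell-like cells gave 1 gene, Cxcl12, which was lower in AC8, against 11.5% of 2837 genes lower and 10.5% higher. Its direction turned when every deposited cell was used, with a log2 ratio of 0.49, where it was -1.39. The median log2 ratio of the compared chemokine genes was -0.06 in fibroblast-like, 0.19 in macrophage-like and 0.08 in endothelial-like cells, beside -0.05, -0.02 and -0.02 over all genes compared.

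**Figure D2:**
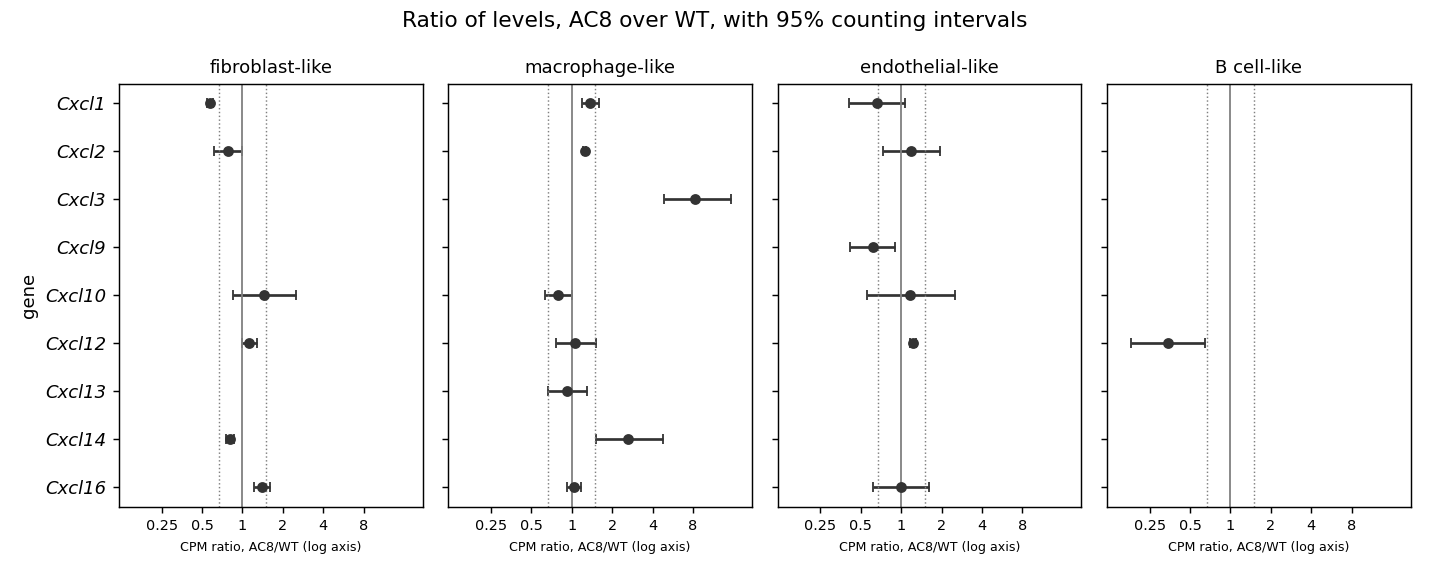
Ratio of CPM, AC8 over WT, on a log axis for each gene with at least 30 UMIs in each class of at least 100 cells per library. Points are ratios, bars are 95% counting intervals and dotted lines mark 1.5-fold. Cxcl1 lies below 1 in fibroblast-like cells, and Cxcl3 and Cxcl14 lie above 1.5 in macrophage-like cells.

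The ELR chemokine genes lie together on chromosome 5 of GRCm38, with Cxcl3 at 90786103 to 90789600, Cxcl1 at 90891241 to 90893115 and Cxcl2 at 90903871 to 90905938, all on the plus strand. Their promoters are shown because the 3 genes share a word of the kind NF-kB binds, although Cxcl1 was found mainly in fibroblast-like cells and Cxcl2 and Cxcl3 mainly in macrophage-like cells. Each window runs from 110 to 41 bases before the RefSeq gene start on GRCm38.p6, plus strand. Capitals mark matches, on either strand, of a general NF-kB word (GGG, any 3 bases, TTCC) and of the run of letters that all 3 promoters share, which contains it.
Cxcl1, chr5:90891135-90891204: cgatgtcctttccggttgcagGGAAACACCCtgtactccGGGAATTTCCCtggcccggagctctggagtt
Cxcl2, chr5:90903789-90903858: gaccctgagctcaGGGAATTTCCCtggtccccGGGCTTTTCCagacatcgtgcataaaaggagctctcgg
Cxcl3, chr5:90785991-90786060: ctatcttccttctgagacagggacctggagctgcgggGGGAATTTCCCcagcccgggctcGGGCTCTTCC
The longest run shared by the 250 bases upstream of all 3 genes was GGGAATTTCCC, found from these promoters themselves. It began 71, 97 and 73 bases before the RefSeq start of Cxcl1, Cxcl2 and Cxcl3. The gene positions given above are those of GENCODE, whose starts differ from these, most for Cxcl2. The run occurs, on either strand, in 14 of 32851 mouse promoters of that length (0.0426%), and the general word in 4.65%. A match is a description of the letters and not a measured site.

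Cxcl1, a ligand that draws neutrophils, was lower in AC8 fibroblast-like cells. Its level was 527 CPM (506 to 549; 2344 UMIs) in AC8 and 925 CPM (897 to 954; 4050 UMIs) in WT, a ratio of 0.57 (0.54 to 0.60). With every cell thinned to 1000 UMIs, 26.7% of AC8 (24.5 to 29.0) and 35.7% of WT fibroblast-like cells (33.5 to 37.9) held a Cxcl1 UMI, against 39.5% and 44.7% before thinning. B cell-like cells, which should lack the gene, held one in 1.01% of AC8 and 0.00% of WT cells at the same depth. The counting intervals of the 2 libraries did not overlap, in level or in share.

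The lower level ran through the fibroblast-like clusters, which are named here by 1 of their leading genes. In the Dpep1 cluster Cxcl1 stood at 754 CPM in AC8 and 1158 CPM in WT (ratio 0.65, 0.60 to 0.70). The Ccl19 cluster had 566 CPM in AC8 and 945 CPM in WT (ratio 0.60, 0.55 to 0.65), and the Pi16 cluster, of adventitial-type genes, had 217 CPM in AC8 and 492 CPM in WT (ratio 0.44, 0.38 to 0.51). In the small C7 cluster the values were 650 CPM in AC8 and 869 CPM in WT, with an interval of the ratio that reached 1.0 (0.75, 0.55 to 1.0). The Dpep1 cluster was the highest and the Pi16 cluster the lowest of these 4 in both libraries, while the Ccl19 and C7 clusters changed places. Depth per cell differed between the libraries, with medians of 2746 UMIs in AC8 and 2156 in WT fibroblast-like cells. Within cells of 1000 to under 2000, 2000 to under 4000 and 4000 or more UMIs the ratios were 0.51, 0.61 and 0.58.

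**Figure D3:**
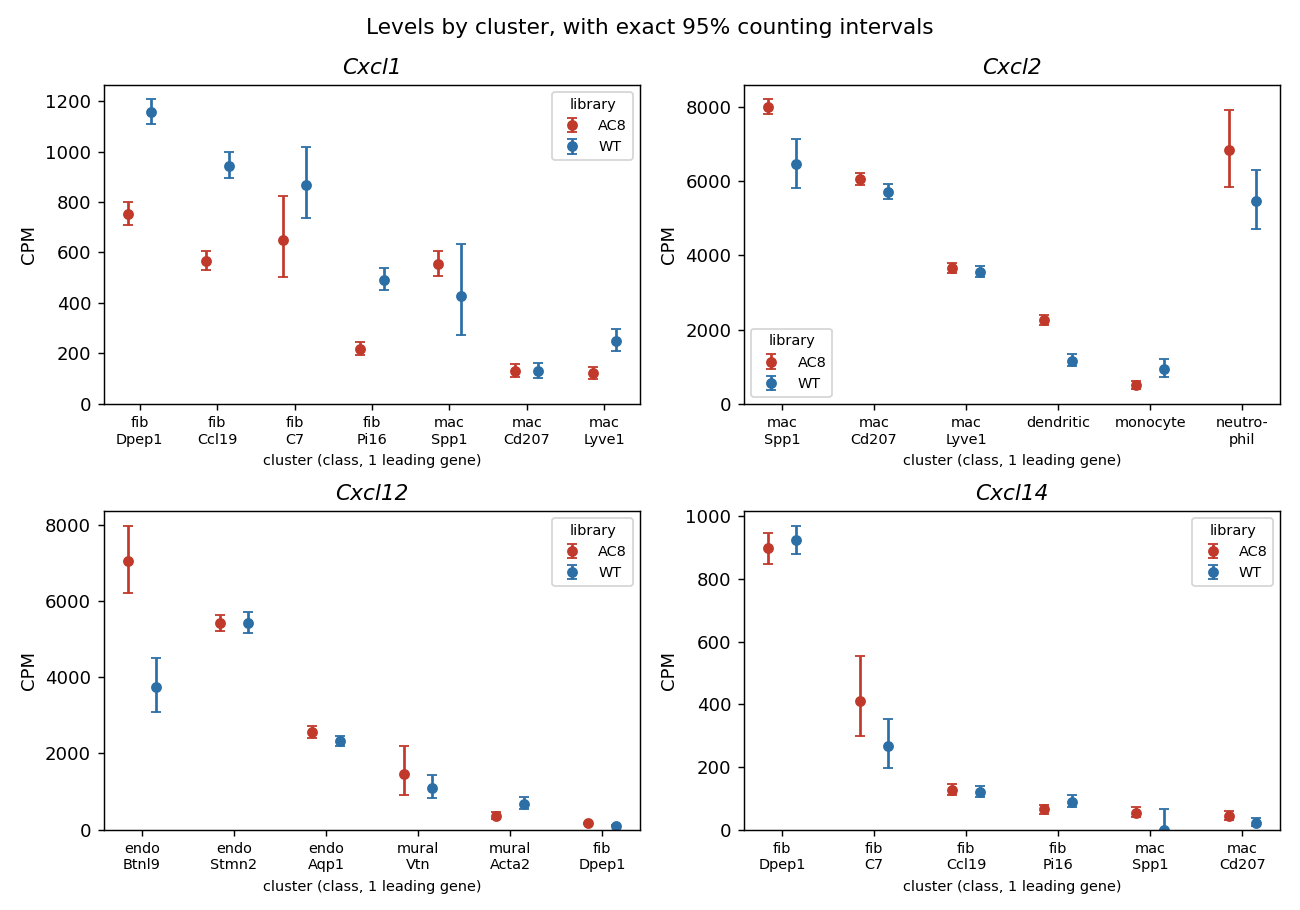
Levels in CPM of Cxcl1, Cxcl2, Cxcl12 and Cxcl14 by cluster (class and 1 leading gene; fib, fibroblast-like; mac, macrophage-like; endo, endothelial-like), with AC8 in red left of WT in blue and exact 95% counting intervals. Cxcl1 is lower in AC8 in the Dpep1, Ccl19 and Pi16 fibroblast-like clusters, while Cxcl14 in the Dpep1 cluster is at 897 CPM in AC8 and 924 CPM in WT.

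Some genes that respond to the preparation of single cells were also lower in AC8 fibroblast-like cells. Of 20 listed immediate-early and heat-shock genes, 6 were past 1.5-fold lower in AC8 fibroblast-like cells and 0 higher. The median log2 ratio was -0.31, with 4 above 0. Of all genes compared in that class, 2.98% were lower and 0.847% higher. By cluster, 8 of the 20 were past the fold and lower in the Dpep1 cluster (median -0.28), 7 in the Ccl19 cluster (median -0.33) and 2 in the Pi16 cluster (median -0.17), where the Cxcl1 ratio was 0.44. In the Lyve1 macrophage-like cluster, where the Cxcl1 ratio was 0.48, 2 were lower and 1 higher, with a median of -0.04. Of all genes compared in that cluster, 8.27% were lower. The Cd207 macrophage-like cluster, where Cxcl1 was inside 1.5-fold, had 7 lower and 1 higher (median -0.28). In the whole macrophage-like class 8 were lower and 0 higher (median -0.30), where 7.61% of all genes compared were lower. Endothelial-like cells had 0 lower and 3 higher (median 0.11), where 4.8% of all genes compared were higher. In B cell-like cells 18 of the list had enough UMIs, with 2 lower and 4 higher (median 0.09). There 11.5% of all genes compared were lower and 10.5% higher. In fibroblast-like cells the list summed to 40997 CPM in AC8 and 47697 CPM in WT. Hspa1a, an inducible heat-shock protein, was there at 315 CPM in AC8 and 557 CPM in WT. Egr1, an immediate-early transcription factor, was at 2898 CPM in AC8 and 4637 CPM in WT. At equal depth, AC8 fibroblast-like cells with a Cxcl1 UMI held 52944 CPM of the list and those without 37215 CPM, and the WT values were 60634 and 40605 CPM. The part of this response in the Cxcl1 difference was not tested.

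The feedback genes of NF-kB and the regulators of messenger decay were lower in part. Of 10 listed genes in fibroblast-like cells, 3 were above 0, and the list median was -0.30. Past the fold were 2, both lower in AC8, where 2.98% of all genes compared were lower. They were Tnfaip3, which encodes the inhibitor A20, at 19.1 CPM in AC8 and 34.3 CPM in WT, and Birc3, which encodes a ubiquitin ligase of the TNF receptor pathway, at 33.1 CPM in AC8 and 56.9 CPM in WT. Nfkbia, which encodes the inhibitor of NF-kB that is itself an NF-kB target, differed little, at 588 CPM in AC8 and 563 CPM in WT. Fibroblast-like cells with a Cxcl1 UMI held 5709 CPM of this list in AC8 and 6029 CPM in WT, and those without held 3301 CPM in AC8 and 3490 CPM in WT. Of the receptors and adaptors upstream of the ELR ligands, 1 of 8, the kinase gene Ripk1, was past the fold, at 45.7 CPM in AC8 and 76.5 CPM in WT. Of the 6 genes for proteins that bind, cleave or display chemokines, Tnfaip6, whose product TSG-6 binds chemokines, was past it, at 283 CPM in AC8 and 432 CPM in WT. The fibroblast-like clusters differed. In the Dpep1 cluster only Nfkb2 of these lists was past the fold, lower in AC8, and the NF-kB list median was -0.11. Tnfaip3 and Tnfaip6 were past it and lower in the Ccl19 and Pi16 clusters. Birc3, Ripk1 and Nfkb1 were so in the Ccl19 cluster alone, and Nfkbiz in the Pi16 cluster alone. In macrophage-like cells Tnfaip3, Birc3, Nfkbiz, Ripk1, Il17ra, Tlr4 and Sdc4 of these lists were past the fold. All were lower in AC8, like 7.61% of all genes compared there. Tnfaip3, Birc3 and Ripk1 were also past it and lower in the Cd207 and Lyve1 macrophage-like clusters. In endothelial-like cells 0 genes of these lists were past it.

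In macrophage-like cells Cxcl1 pointed the other way as a class but not cluster by cluster. The class had 272 CPM in AC8 and 198 CPM in WT (ratio 1.37, 1.18 to 1.6), short of the fold. The Cd207 cluster had 129 CPM in AC8 and 131 CPM in WT, and the Lyve1 cluster, with resident macrophage genes, had 121 CPM in AC8 and 250 CPM in WT (ratio 0.48, 0.37 to 0.63). The Spp1 cluster, led by Spp1, Gpnmb and Trem2, had the highest Cxcl1 among the macrophage-like clusters, 555 CPM in AC8 and 427 CPM in WT, and held 149 AC8 and 12 WT cells. Without that cluster the log2 ratio of the class was -0.54, where it was 0.44 with it. Mural-like cells had 92.2 CPM (15 UMIs) in AC8 and 272 CPM (42 UMIs) in WT.

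Cxcl2, the close relative of Cxcl1, was a gene of the phagocytes. Macrophage-like cells held 5967 CPM (5871 to 6065) in AC8 and 4799 CPM (4676 to 4925) in WT, a ratio of 1.24 (1.21 to 1.28), inside 1.5-fold. Neutrophil-like cells, 12 in AC8 and 15 in WT, held 6837 CPM (5856 to 7935) in AC8 and 5474 CPM (4725 to 6307) in WT. At equal depth 62.7% of AC8 and 65.1% of WT macrophage-like cells held a Cxcl2 UMI, against 2.26% of AC8 and 2.62% of WT fibroblast-like cells.

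The libraries were closer in the Cd207 and Lyve1 macrophage-like clusters, but not in the Spp1 cluster. The Cd207 cluster held 6058 CPM in AC8 and 5722 CPM in WT (ratio 1.06, 1.01 to 1.11), and the Lyve1 cluster 3658 CPM in AC8 and 3565 CPM in WT (1.03, 0.97 to 1.09). The Spp1 cluster held 8013 CPM in AC8 and 6454 CPM in WT (1.24, 1.12 to 1.38). The class's log2 ratio was 0.31 with the Spp1 cluster and 0.06 without it. By depth the ratio was 0.86 in cells of 1000 to under 2000 UMIs, 1.13 in those of 2000 to under 4000 and 2.06 in those of 4000 or more, where 210 AC8 and 29 WT cells lay. Dendritic cell-like cells, 107 in AC8 and 45 in WT, had 2255 CPM in AC8 and 1161 CPM in WT (1.94, 1.67 to 2.26). Monocyte-like cells, 68 in AC8 and 33 in WT, went the other way, with 503 CPM in AC8 and 944 CPM in WT (0.53, 0.38 to 0.75). In fibroblast-like cells the level was 0.48% (AC8) and 0.77% (WT) of the macrophage-like level, beside 0.40% and 0.31% for the summed macrophage markers. Endothelial-like cells had 0.74% (AC8) and 0.77% (WT), beside 0.72% and 0.71% for the markers. Mural-like cells had 0.52% (AC8) and 0.68% (WT), beside 0.74% and 1.40%. Among the Dpep1, Ccl19 and Pi16 fibroblast-like clusters, Cxcl2 was past the fold in the Pi16 cluster alone, lower in AC8.

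**Figure D4:**
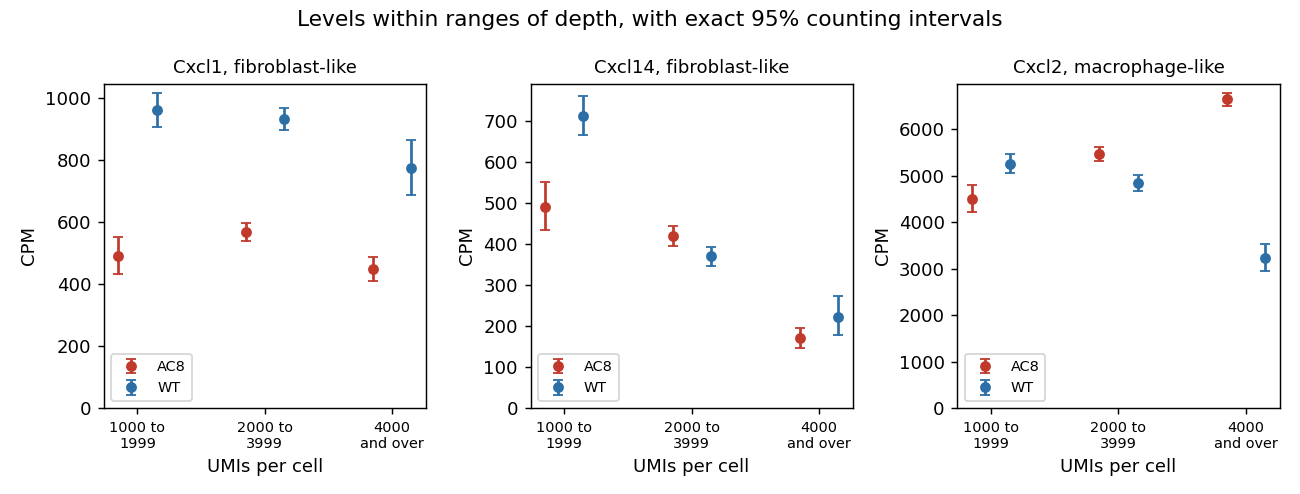
Levels in CPM of Cxcl1 and Cxcl14 in fibroblast-like and of Cxcl2 in macrophage-like cells within 3 ranges of UMIs per cell, with AC8 in red left of WT in blue and exact 95% counting intervals. Cxcl1 is lower in AC8 in each range (ratios 0.51, 0.61 and 0.58), whereas the ratio of Cxcl2 changes with depth (0.86, 1.13 and 2.06). The ratio of Cxcl14 also changes direction with depth (0.69, 1.13 and 0.77).

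Cxcl3, the third ELR ligand, lay in very few cells. Macrophage-like cells held 97.1 CPM (237 UMIs in 22 of 697 cells) in AC8 and 11.7 CPM (14 UMIs in 9 of 544 cells) in WT, a ratio of 8.31 (4.86 to 15.4). Of the AC8 UMIs, 221 came from 16 cells of the Spp1 cluster, and 1 cell held 68 of them. That cluster had 265 CPM in its 149 AC8 cells, and its 12 WT cells held 0 Cxcl3 UMIs, where 3 counts over those cells would be 53.3 CPM. With 12 WT cells and a gene held by few cells, no fold is given. Without the Spp1 cluster the log2 ratio was -0.16, where it was 2.30 with it. The Cd207 cluster had 14 UMIs in 4 AC8 cells and 6 UMIs in 5 WT cells, and the Lyve1 cluster 2 UMIs in AC8 and 8 in WT. Dendritic cell-like cells held 89.9 CPM in 5 AC8 cells and 33.5 CPM in 1 WT cell. At equal depth, of the 14 AC8 macrophage-like cells with a Cxcl3 UMI, all 14 held a Cxcl2 UMI and 10 held a Cxcl1 UMI, compared with 61.9% and 9.81% of the 683 without. That comparison ran over the whole class. It was not made within the Spp1 cluster, which also had the highest Cxcl1 and Cxcl2 of the macrophage-like clusters.

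**Figure D5:**
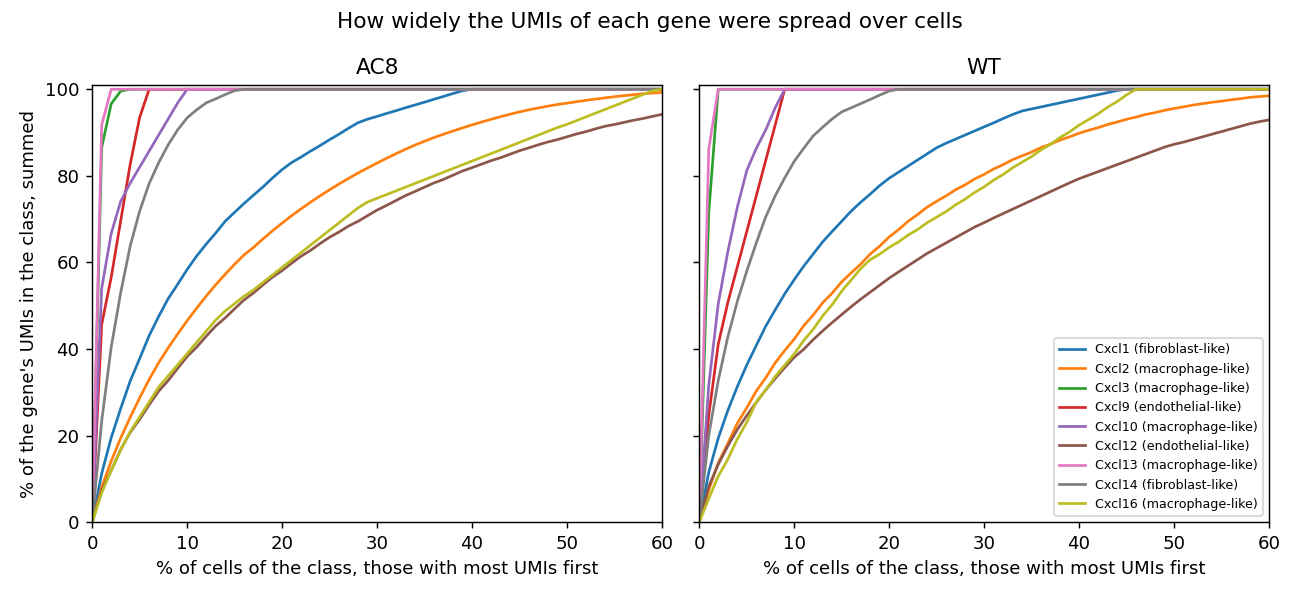
Running share of each gene's UMIs in its main large class (y axis, percent) as cells are added from those with most UMIs of it (x axis, percent of cells, cut at 60), for AC8 left and WT right. All Cxcl3 UMIs lay in 3.16% of AC8 and 1.65% of WT macrophage-like cells, whereas the Cxcl12 UMIs were spread over 84.1% of AC8 and 85.0% of WT endothelial-like cells.

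Cxcl9 and Cxcl10, the interferon-induced ligands, are also on chromosome 5 (minus strand, 92321347 to 92328079 and 92346638 to 92348889). The promoter of Cxcl10 is shown because it carries both NF-kB and interferon words, with capitals at matches, on either strand, of the general NF-kB word and of a word of interferon-stimulated elements (GAAA, any 2 bases, GAAA), in a window from 220 to 91 bases before the start.
Cxcl10, chr5:92348980-92349109, minus strand: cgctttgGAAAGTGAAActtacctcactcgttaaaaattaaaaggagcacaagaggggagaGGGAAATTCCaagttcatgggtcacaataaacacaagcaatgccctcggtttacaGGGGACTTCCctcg
The interferon word occurs upstream of 2.98% of promoters, and among the 8 chemokine genes with a promoter in the RefSeq table it was found for Cxcl10 and Cxcl14.

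Cxcl9 was a gene of endothelial- and dendritic cell-like cells. Endothelial-like cells held 51.9 CPM (46 UMIs in 31 cells) in AC8 and 84.2 CPM (73 UMIs in 54 cells) in WT, a ratio of 0.62 (0.42 to 0.90). Nearly all lay in the Aqp1 cluster, which has capillary genes, with 41 UMIs in AC8 and 71 in WT, and there the interval of the ratio included 1 (0.77, 0.51 to 1.15). The Aqp1 cluster was 267 of the 566 AC8 and 378 of the 595 WT endothelial-like cells. Dendritic cell-like cells held 41.9 CPM in 5 AC8 cells and 78.2 CPM in 2 WT cells. Of 10 genes on the interferon gamma side, 0 were past the fold in endothelial-like cells, with a list median of 0.22 beside -0.02 over all genes compared.

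Cxcl10 was found mostly in myeloid cells. Macrophage-like cells held 77.5 CPM (66.8 to 89.3; 69 cells) in AC8 and 97.7 CPM (80.8 to 117; 49 cells) in WT, with an interval of the ratio that included 1 (0.79, 0.63 to 1.01). Within them the Lyve1 cluster had 41.5 CPM in AC8 and 69.6 CPM in WT, past the fold like 8.27% of the genes compared there, and the Cd207 cluster had 143 CPM in AC8 and 131 CPM in WT. The Dpep1 fibroblast-like cluster had 22.3 CPM in AC8 and 5.48 CPM in WT, past the fold like 2.08% of the genes compared there, and 1 AC8 cell held 18 of its 32 UMIs. Dendritic cell-like cells held 79.9 CPM in 7 AC8 cells and 380 CPM in 8 WT cells, of which 1 WT cell held 47 of 68 UMIs. Of the interferon gamma list in macrophage-like cells, 2 of the 9 genes with enough UMIs were past the fold. Both were higher in AC8, like 6.22% of all genes compared there. They were Socs1, a feedback inhibitor of cytokine signalling, at 20.9 CPM in AC8 and 10.0 CPM in WT, and Cd274, which encodes the checkpoint ligand PD-L1, at 21.7 CPM in AC8 and 5.84 CPM in WT. Neither was past the fold in the Cd207 or Lyve1 cluster. In the Cd207 cluster 2 others of 7, Irgm1 and Igtp, were past it and higher, like 9.18% of the genes compared there. The Lyve1 cluster had 0 of 7 past it.

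Cxcl12 (chromosome 6, 117168535 to 117181367, plus strand), which holds Cxcr4-bearing leukocytes in tissue, was an endothelial gene in both libraries. Endothelial-like cells held 4171 CPM (4037 to 4307) in AC8 and 3411 CPM (3289 to 3536) in WT, a ratio of 1.22 (1.16 to 1.28), inside 1.5-fold. At equal depth 79.7% of AC8 and 79.5% of WT endothelial-like cells held a UMI of it, so the 2 libraries did not differ in share beyond the counting intervals, while 3.73% of AC8 and 3.68% of WT macrophage-like cells did. The Stmn2 cluster, whose leading genes include Sox18, Ly6c1 and Cxcl12 itself, had 5423 CPM in AC8 and 5431 CPM in WT (ratio 1.0, 0.94 to 1.06). The Aqp1 cluster had 2569 CPM in AC8 and 2324 CPM in WT (1.11, 1.02 to 1.20). The small Btnl9 cluster, 26 AC8 and 21 WT cells, had 7064 CPM in AC8 and 3748 CPM in WT (1.88, 1.5 to 2.38). The Stmn2 cluster was 273 of the 566 AC8 and 196 of the 595 WT endothelial-like cells.

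Outside the endothelium Cxcl12 was lower. Mural-like cells had 461 CPM in AC8 and 811 CPM in WT (0.57, 0.42 to 0.76), which is 11.1% and 23.8% of the endothelial-like level, and the summed endothelial markers of these cells were at 8.82% in AC8 and 19.95% in WT of theirs. The Vtn mural cluster, with pericyte genes, had 1457 CPM in 10 AC8 cells and 1103 CPM in 33 WT cells. B cell-like cells had 56.1 CPM in AC8 and 164 CPM in WT (22 UMIs in each library), or 1.34% and 4.80% of the endothelial-like level, and their endothelial markers were at 1.34% in AC8 and 4.77% in WT. Over every deposited cell the direction was the opposite one, as given above. The part of endothelial RNA in these differences was not tested. Fibroblast-like cells had 127 CPM in AC8 and 113 CPM in WT (1.13, 1.0 to 1.27). Within them the Dpep1 cluster had 161 CPM in AC8 and 102 CPM in WT (1.58, 1.29 to 1.92), past the fold like 2.08% of the genes compared there. The Ccl19 cluster had 152 CPM in AC8 and 157 CPM in WT, and in the Pi16 cluster Cxcl12 was also inside the fold.

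Cxcl13 (chromosome 5, 95956951 to 95961068, plus strand), the B cell attractant, lay in few cells. Macrophage-like cells held 44.7 CPM (109 UMIs in 13 cells) in AC8 and 48.4 CPM (58 UMIs in 8 cells) in WT, with an interval of the ratio that included 1 (0.92, 0.66 to 1.29). The cell with most held 27 UMIs in AC8 and 17 in WT. The Cd207 cluster had 93.3 CPM in 5 AC8 cells and 55.7 CPM in 3 WT cells, past the fold like 9.18% of the genes compared there, and the Lyve1 cluster 26.0 CPM in 5 AC8 cells and 45.1 CPM in 5 WT cells, past it in the other direction. The genes with the most similar pattern over 20 points (10 classes in 2 libraries, which share depth and library) were Cd207, Ccl24 and Vsig4, with Pearson correlations of log2 levels of 0.99, 0.99 and 0.98. Outside macrophage-like cells Cxcl13 was at 1.15 CPM or less, so the macrophage-like points largely set these correlations.

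Cxcl14 (chromosome 13, 56288643 to 56296551, minus strand) was highest in 1 part of the fibroblasts but not confined to it. Fibroblast-like cells had 364 CPM (347 to 383) in AC8 and 454 CPM (434 to 474) in WT, a ratio of 0.80 (0.75 to 0.86). In the Dpep1 cluster, where it was highest, it stood at 897 CPM in AC8 and 924 CPM in WT (0.97, 0.90 to 1.04). The Ccl19 cluster had 127 CPM in AC8 and 120 CPM in WT (1.06, 0.86 to 1.31), and the Pi16 cluster 64.3 CPM in AC8 and 89.1 CPM in WT (0.72, 0.53 to 0.98). The small C7 cluster lay between the Dpep1 and Ccl19 clusters in both libraries. The Dpep1 cluster was 520 of the 1547 AC8 and 853 of the 1908 WT fibroblast-like cells. The nearest patterns among other genes were those of Mmp3, Serpinf1 and Olfml3 (correlations of 0.94, 0.94 and 0.93 over the same 20 points).

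Macrophage-like cells also held Cxcl14, at 34.8 CPM (85 UMIs in 53 cells) in AC8 and 13.4 CPM (16 UMIs in 15 cells) in WT, a ratio of 2.61 (1.52 to 4.77). That is 9.56% of the fibroblast-like level in AC8 and 2.94% in WT, where the summed fibroblast markers of the macrophage-like cells were at 0.52% in AC8 and 0.82% in WT. In the Cd207 cluster it was 43.0 CPM in AC8 and 21.3 CPM in WT, past the fold like 9.18% of the genes compared there. The Lyve1 cluster had 5.19 CPM (4 UMIs) in AC8 and 5.64 CPM (3 UMIs) in WT. The Spp1 cluster had 54.0 CPM in AC8 and 0 UMIs in its 12 WT cells, where 3 counts would be 53.3 CPM. Without the Spp1 cluster the log2 ratio was 0.54, inside 1.5-fold, where it was 0.94 with it.

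Cxcl16 (chromosome 11, 70453983 to 70459984, minus strand), the transmembrane ligand, was spread over macrophage-, dendritic cell- and fibroblast-like cells. Macrophage-like cells had 334 CPM (311 to 357) in AC8 and 322 CPM (291 to 356) in WT (ratio 1.04, 0.92 to 1.17). Their shares with a UMI were 59.4% in AC8 and 46.0% in WT before thinning and 26.3% and 27.8% at equal depth, where 2.03% of AC8 and 1.92% of WT B cell-like cells held one. Dendritic cell-like cells had 312 CPM in AC8 and 218 CPM in WT (1.43, 1.0 to 2.09). Fibroblast-like cells had 116 CPM (106 to 126) in AC8 and 83.4 CPM (75.0 to 92.4) in WT, a ratio of 1.39 (1.21 to 1.59) that lay above 1 but inside 1.5-fold. Within them the ratio was 1.41 (1.14 to 1.75) in the Dpep1, 1.70 (1.34 to 2.16) in the Ccl19 and 1.07 (0.80 to 1.45) in the Pi16 cluster. Of these clusters only the Ccl19 cluster was past the fold.

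The receptors of these ligands were read from a list of 8 genes. Cxcr4, the signalling receptor of Cxcl12, was found in B cell-like cells at 359 CPM in AC8 and 402 CPM in WT and in macrophage-like cells at 88.5 CPM in AC8 and 87.7 CPM in WT. Cxcr5, the receptor of Cxcl13, was found in B cell-like cells at 204 CPM in AC8 and 201 CPM in WT. Ackr3, which scavenges Cxcl12, was a fibroblast gene with 514 CPM in AC8 and 470 CPM in WT, and in the Pi16 cluster with 1034 CPM in AC8 and 1091 CPM in WT. In endothelial-like cells both receptor genes with enough UMIs were past the fold, lower in AC8 like 5.19% of all genes compared there. Ackr3 had 88.0 CPM in AC8 and 143 CPM in WT (0.61, 0.46 to 0.82), and Cxcr4 11.3 CPM (10 UMIs) in AC8 and 26.5 CPM (23 UMIs) in WT (0.43, 0.18 to 0.93). In the Aqp1 cluster the log2 ratio of Ackr3 was -0.587, only just past the fold. In the Stmn2 cluster the 1 receptor gene with enough UMIs was at -0.443, inside it. Cxcr2 and Cxcr3, named here because they bind the ELR and interferon-induced ligands, had 11 and 19 UMIs in the AC8 library and 16 and 22 in the WT library, too few to compare by class.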

How the data were processed

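Fresh hearts of AC8 overexpressing and WT mice gave 1 library each. The deposited values are counts, whole UMIs per gene and cell, generated by the authors with Cell Ranger per the labels' protocols, on mm10 per the submitters' processing notes, with no version given in those sources. The barcode lists hold running numbers, so barcodes shared between libraries could not be counted. Cells needed at least 1000 UMIs and 500 genes and at most 10% mitochondrial UMIs (1126 AC8 and 2066 WT cells fell under the minimum, 18 AC8 and 15 WT cells over the limit). Doublets, scored against simulated ones, were removed at 0.8% per 1000 deposited cells (145 AC8 and 173 WT cells). The 2000 most variable genes without the 9 chemokine genes, 30 principal components and 15 neighbours were clustered with Leiden at resolution 1, without integration, into 21 clusters.

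Clusters were named from listed markers, with at least 3 detected in 10% of cells. The scoring rule was set after the clusters were seen and went through several versions, because early ones named clusters for undetected types, named a mixed macrophage, T and B cell cluster and a cell-cycle cluster, or left fibroblast clusters unnamed under the stricter depth filter. The version used leaves a cluster unnamed where another lineage scores at least 0.6 of the best, where its 10 leading genes hold more markers of another type, or where they hold no own marker and the score is under 0.7; 2 clusters stayed unnamed. The 9 genes, the gene lists and the markers were chosen with earlier results of these data known. Of each list, genes past 1.5-fold and the 2 highest were open to be named, and the 3 genes most correlated with each chemokine gene. Depth ranges, values by cluster and values without the Spp1 cluster were added after seeing the data.

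Counts were summed by class and library, divided by the class total and scaled to CPM. No test was possible with 1 library per genotype. Exact Poisson intervals were used for CPM, and exact binomial ones for ratios and (Clopper-Pearson) for shares; the ratio script was tested on simulated data. Promoters came from RefSeq (8 of 9 genes matched), gene positions from GENCODE on GRCm38. Clustering used leidenalg 0.10.2 with igraph 0.11.9 and scikit-learn 1.9.0, and sums and intervals used scipy 1.17.1, pandas 2.3.3 and numpy 2.4.6 under Python 3.11.15.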

Additional observations from a re-analysis of the deposited data

Results flagged for a closer look

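Among clusters of at least 100 cells in each library, 2 chemokine genes were past 1.5-fold in opposite directions, and the difference between the clusters was not tested. The log2 ratio of Cxcl10, AC8 over WT, was 1.06 in the Dpep1 fibroblast-like cluster (22.3 CPM in AC8, 5.48 CPM in WT), where 1 AC8 cell held 18 of 32 UMIs, and -0.63 in the Lyve1 macrophage-like cluster (41.5 CPM in AC8, 69.6 CPM in WT). The log2 ratio of Cxcl13 was 0.65 in the Cd207 cluster (5 AC8 and 3 WT cells with a UMI) and -0.62 in the Lyve1 cluster (5 AC8 and 5 WT cells with a UMI). Of all genes compared, 2.08% were past the fold and higher in the Dpep1 cluster and 9.18% in the Cd207 cluster. In the Lyve1 cluster 8.27% were past it and lower.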

How the results depend on the processing

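The log2 ratio of Cxcl1 in fibroblast-like cells stayed past 1.5-fold under 10 of 10 alternatives (-0.86 to -0.73). Endothelial-like Cxcl9 stayed past it in 7 of 9 (-1.02 to -0.44), macrophage-like Cxcl14 and Cxcl3 in 10 of 11 each. Without the Spp1 cluster the log2 ratio of Cxcl3 was -0.16 and 0 genes, against 2, were past the fold in macrophage-like cells. When every deposited cell was used, the log2 ratio of Cxcl12 in B cell-like cells was 0.49, against -1.39, and 0 genes were past the fold there, against 1. In B cell-like cells 2 were past it with no minimum of UMIs. In endothelial-like cells 2 were past it by the mean over cells and 2 with the chemokine genes kept in clustering (Cxcl1 and Cxcl9 both times), and 0 with median-of-ratios scaling; with cells thinned the count was 1, but it was Cxcl1. Beyond these, the causes were not tested. At a minimum of 2000 UMIs endothelial- and B cell-like cells, and without doublet removal B cell-like cells, were too few to give a value. Of the other alternative values of log2 ratios, 195 lay within counting error of the reported one and 13 did not; within single clusters or depth ranges 26 did and 41 did not, and of the shares of cells before thinning 5 did and 13 did not. No paired analysis was possible because each genotype has 1 library. Cxcl3 lay in 22 AC8 and 9 WT and Cxcl13 in 13 AC8 and 8 WT macrophage-like cells, so few cells set their levels.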
